A study of Mus musculus with 21 samples.

Results

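The regions described here were PSME3 CUT&RUN peaks of cycling C2C12 myoblasts that carried H3K4me3 but lay away from annotated genes. They were chosen by 3 conditions on the authors' pooled peak lists of cycling cells: a PSME3 peak had to overlap a pooled H3K4me3 peak by at least 1 bp, overlap no gene of the GRCm38.p6 gene table, and lie more than 1 kb from every gene start and end. Of 5812 pooled PSME3 peaks, 5441 overlapped H3K4me3 and are called shared peaks below. These divided into 3398 gene-boundary peaks within 1 kb of a gene start or end, 1419 intragenic peaks inside a gene and farther than that from its ends, and 624 intergenic shared peaks, the regions of interest. A further 135 intergenic PSME3 peaks had no H3K4me3 and were left aside. Of the 624 regions, 2 lay on unplaced sequences that have no gene in the table, so distances were known for 622.

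CUT&RUN uses an antibody to direct a nuclease to a chromatin protein, and the DNA fragments set free are sequenced. The cells were C2C12, a single mouse myoblast line that forms myotubes when serum is withdrawn. Cycling cells grew in 20% FBS and were cryopreserved unfixed in 10% DMSO, and 3 replicates were made with each of the PSME3 and H3K4me3 antibodies. Day 2 cells had spent 48 h in 2% horse serum and came in 4 preparations, namely fresh or frozen, each native or crosslinked in 0.1% formaldehyde, with 1 library per antibody and preparation. Values of the 4 day 2 preparations are listed in 1 order throughout, fresh cells before frozen ones and, for each, native before crosslinked. The 7 IgG libraries were not analysed here, and whether IgG signal lay at these regions was not tested. Time, serum and preparation changed together for the fresh and the crosslinked libraries, and only the frozen native preparation matched the cycling cells in handling. The lists give a fold enrichment over the background estimated by the peak caller, MACS2, with no read counts. The control given to the caller is not given in the sources used here, so the folds may be over IgG or over the local background of the library itself. Depth was unknown, and all values below depend on where the caller drew its threshold. Within 1 kb of Myod1, Myf5 and Des, genes of the myogenic lineage, all 3 cycling and all 4 day 2 lists held H3K4me3. Around Myog, which is switched on as myoblasts differentiate, H3K4me3 was listed in 0 of 3 cycling and 4 of 4 day 2 libraries. None of the 7 lists had a peak at the liver gene Alb.

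H3K4me3, trimethylation of lysine on the tail of histone H3, is laid down mainly at active promoters, where it marks a stretch of nucleosomes on both sides of the start site. Away from annotated genes it is found at unannotated starts, at the starts of long primary transcripts of microRNAs, and at lower levels at some active enhancers. PSME3, also called PA28γ or REGγ, is a nuclear activator that caps the proteasome core and promotes the breakdown of some proteins without ubiquitin.

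Some of the regions lay upstream of microRNA genes. The 1228 microRNA genes of the table are hairpins with a median length of 80 bp, and the longest spans 147 bp, so a primary transcript can start outside its hairpin entry and then counts as intergenic unless another gene of the table lies there. The region with the highest PSME3 fold enrichment among those in at least 2 replicate lists (4.69, chr13:48546013-48546837) lay 7741 bp upstream of the Mirlet7a-1 hairpin, with Mirlet7f-1 and Mirlet7d beyond it. A pair of regions lay upstream of Mirlet7c-2 and Mirlet7b, on the widest H3K4me3 peak among those that held an intergenic shared peak. Their nearest genes were lncRNAs of the table, D130051D11Rik at 29194 bp and Lncppara at 23995 bp. A further 3 regions lay upstream of the Mir23a, Mir27a and Mir24-2 hairpins. The mature products of those hairpins are shown because these 3 clusters recur through the results. Sequences are from RefSeq on GRCm38.p6, written 5′ to 3′ with the seed, bases 2 to 8, in capitals.
mmu-let-7a-5p: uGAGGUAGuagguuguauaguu
mmu-let-7f-5p: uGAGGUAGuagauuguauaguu
mmu-let-7d-5p: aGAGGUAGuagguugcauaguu
mmu-let-7c-5p: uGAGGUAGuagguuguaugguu
mmu-let-7b-5p: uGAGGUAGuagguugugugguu
mmu-miR-23a-3p: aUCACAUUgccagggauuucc
mmu-miR-27a-3p: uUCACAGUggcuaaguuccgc
mmu-miR-24-3p: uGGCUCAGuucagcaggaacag
The 5 let-7 products come from 2 chromosomes and share the seed GAGGUAG. The seeds of miR-23a-3p, UCACAUU, and miR-27a-3p, UCACAGU, differ from each other and from that of miR-24-3p, GGCUCAG. Hairpins near a PSME3 peak were not particular to intergenic regions. A microRNA gene lay within 50 kb of 56 of the 624 intergenic regions (8.97%), of 14.0% of gene-boundary peaks and of 11.8% of intragenic peaks.

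Other regions belonged to a broad H3K4me3 domain that also covered a promoter. The 250 bases before the start sites of Id2, Mef2d and Socs3 are shown because each lay under the same H3K4me3 peak as an intergenic shared peak. Id2 encodes an inhibitor of MyoD-type bHLH factors, Mef2d a transcription factor of muscle genes, and Socs3 a suppressor of cytokine signalling. Sequences are from RefSeq on GRCm38.p6, on the strand of the gene: chr12:25096093-25096342 (minus strand) for Id2, chr3:88142122-88142371 (plus strand) for Mef2d and chr11:117969367-117969616 (minus strand) for Socs3. Capitals mark CAGCTG, an E-box, and GGGCGG, a GC box, on either strand, so that the GC box can also read CCGCCC.
Id2: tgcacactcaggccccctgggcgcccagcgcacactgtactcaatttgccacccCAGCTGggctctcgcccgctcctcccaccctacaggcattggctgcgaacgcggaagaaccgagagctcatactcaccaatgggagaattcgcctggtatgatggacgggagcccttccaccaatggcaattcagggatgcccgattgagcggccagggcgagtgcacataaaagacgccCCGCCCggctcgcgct
Mef2d: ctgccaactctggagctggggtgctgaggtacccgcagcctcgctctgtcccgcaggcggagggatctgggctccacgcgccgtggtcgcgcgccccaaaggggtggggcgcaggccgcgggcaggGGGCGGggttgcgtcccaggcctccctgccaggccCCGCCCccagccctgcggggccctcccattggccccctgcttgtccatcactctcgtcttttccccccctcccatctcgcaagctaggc
Socs3: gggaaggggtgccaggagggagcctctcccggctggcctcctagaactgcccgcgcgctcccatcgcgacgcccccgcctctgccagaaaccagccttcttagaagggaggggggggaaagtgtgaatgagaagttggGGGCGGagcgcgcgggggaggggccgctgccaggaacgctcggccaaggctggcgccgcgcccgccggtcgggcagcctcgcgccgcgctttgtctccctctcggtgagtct
Id2 held 1 match to each motif, Mef2d 2 matches to GGGCGG and Socs3 1. Start sites under an H3K4me3 peak that held an intergenic shared peak numbered 50, from 43 genes. GGGCGG occurred in 70.0% of these 50 windows, 61.8% of 13075 windows under other pooled H3K4me3 peaks and 32.7% of all 32851 windows of the table. CAGCTG occurred in 8.0%, 11.8% and 13.0%, TGACTCA in 2.0%, 3.08% and 4.46%, and TATAAA in 10.0%, 5.69% and 12.4% of the same sets, each searched on both strands. Median GC content was 65.0%, 61.2% and 52.4% in the same order. A match is a string of letters in the window and says nothing of a bound factor. The windows overlap for genes with several starts.

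The intergenic shared peaks lay a median of 7824 bp from the nearest gene (interquartile range 3287 to 17385 bp, n = 622). Counted by distance, 73 lay at 1 to 2 kb, 147 at 2 to 5 kb, 147 at 5 to 10 kb, 131 at 10 to 20 kb, 106 at 20 to 50 kb and 18 beyond 50 kb. The nearest gene was protein coding for 301, a lncRNA for 219, a pseudogene for 71, a transcribed pseudogene for 4 and a small RNA for 27 (9 microRNA, 9 snoRNA, 8 snRNA and 1 tRNA). The median distance was 6835 bp where that gene was protein coding, 8556 bp for lncRNAs and 11283 bp for pseudogenes. The distances are a description, since the limit of 1 kb chose the regions. Just inside that limit were peaks 1008 bp from Zfp36, 1042 bp from Gnai2 and 1055 bp from Gm9875, and just outside it were shared peaks 989 bp from Mef2d, 987 bp from Podxl and 972 bp from Eif2b2.

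**Figure D1:**
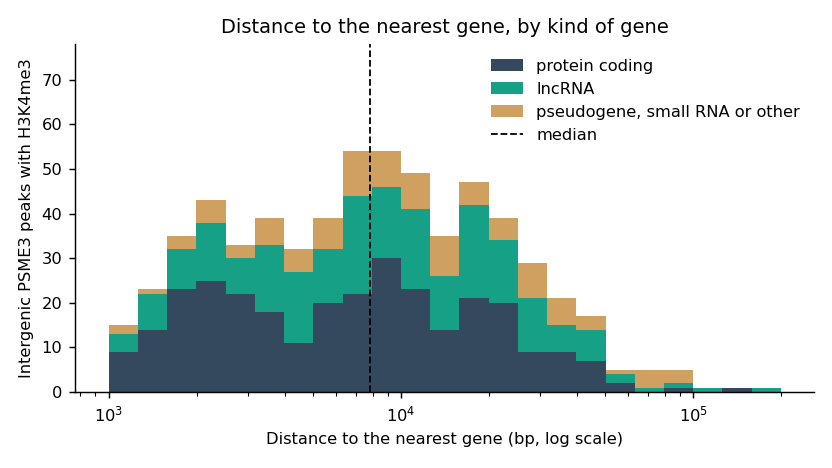
Distance from each of 622 intergenic shared peaks to the nearest gene on a log axis, stacked by the kind of that gene, with the median of 7824 bp as a dashed line. The bars are highest around the median, and 18 peaks lie beyond 50 kb.

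The strand of the nearest gene was known for 415 regions, of which 201 (48.4%, with an exact 95% binomial interval from 43.5 to 53.4% that covers counting error only) lay upstream of the gene and the others downstream. Among the 233 of these with a protein-coding neighbour, 117 (50.2%) lay upstream. The interval held an even split in both cases.

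Of the 5 regions farthest from any gene, 1 was in a PSME3 replicate list and 1 had H3K4me3 at day 2, while their pooled PSME3 fold enrichments of 2.87 to 3.59 lay around the median of 2.96 over all 624. The most distant, chr4:87401748-87402390, lay 163468 bp from a lncRNA, and the next, chr13:35512237-35512589, lay 147229 bp from Cdyl, which encodes a chromodomain corepressor. Neither was in any PSME3 replicate list, both stood on H3K4me3 peaks of under 1 kb (376 and 753 bp), and both lacked H3K4me3 in every day 2 preparation. Of the 5 most distant regions, chr13:6109090-6109303 stood out, at 95127 bp from the lncRNA Gm46401. Its H3K4me3 peak spanned 2815 bp with a fold enrichment of 9.09, was in all 3 cycling replicate lists (7.61, 5.60 and 11.1) and was found in 3 of 4 day 2 preparations (3.48, 6.64 and 4.23, all but fresh native), although PSME3 there was in 0 replicate lists. The region 113539 bp from Gm40948 had PSME3 in replicate 3 (3.88) and H3K4me3 in all 3 cycling lists (4.59, 3.15 and 3.75) on a host of 2096 bp, but in 0 of 4 day 2 lists. The last of the 5, chr15:56975541-56975973 (91813 bp from the nearest gene), had H3K4me3 in 1 cycling list (2.57) and in 0 of 4 day 2 lists.

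The pooled H3K4me3 peak with the largest overlap was taken as the host of each region. Host peaks of intergenic regions had a median width of 1242.5 bp (interquartile range 759 to 2204 bp) and a median fold enrichment of 3.16, against 3332 bp and 15.7 for hosts of gene-boundary peaks and 1985 bp and 4.23 for hosts of intragenic peaks. In the separate cycling replicate lists, the median width over the regions was 1032, 1310 and 1115 bp, a mean of 1152 ± 143 bp (SD, n = 3). PSME3 fold enrichment did not follow the same order, with medians of 2.96, 2.94 and 2.90 for intergenic, gene-boundary and intragenic shared peaks. These folds lay in narrow interquartile ranges of 2.77 to 3.20, 2.74 to 3.22 and 2.75 to 3.13. The median PSME3 peak width was 393, 471 and 391 bp, and the median -log10 of the q-value 2.05, 2.24 and 1.89. Both were highest for gene-boundary peaks. No test was made on these values, because the same lists chose the regions.

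In total 610 different H3K4me3 peaks served as hosts, and 505 of the 624 regions lay wholly inside theirs. A median of 180.5 bp separated the centre of the PSME3 peak from that of its host. For 578 regions the host held no other PSME3 peak, and 13 hosts held more than 1 region.

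Although no region itself came within 1 kb of a gene, the host peak did so for 68 (10.9%) and overlapped a gene for 57 of them. These 68 hosts were broad and strong, with a median width of 6722 bp and a median fold enrichment of 11.8, against 1130 bp and 3.02 for the 556 others. For 26 of the 68, the host also held a gene-boundary PSME3 peak. Among the genes of the lists given below, such hosts reached Hes1 (a Notch target, host 8426 bp), Id2 (9248 bp), Mef2d (9812 bp), Ccnd1 (cyclin D1, 9018 bp), Egr3 (a growth factor induced zinc finger gene, 5374 bp) and Fosl1 (18250 bp), while the hosts near Id1 and 6 of the 8 serum response regions stayed over 1 kb away. At the opposite end were free-standing H3K4me3 peaks with no gene within reach. The widest host of any intergenic region, 38176 bp with a fold enrichment of 20.2, was of this kind, with its nearer edge 12002 bp from a gene. It held regions at chr15:85669718-85671124 and chr15:85679119-85679778, each in 1 PSME3 replicate list, and the Mirlet7c-2 hairpin lay 26825 bp downstream of the second. H3K4me3 was found at both in every cycling replicate (22.4, 13.5 and 30.3) and every day 2 preparation (8.16, 12.7, 20.7 and 15.6). The next widest hosts, 31770 bp over Midn and Cirbp and 23602 bp next to Frmd8, reached genes and also carried H3K4me3 in all 4 preparations.

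Support for PSME3 in the separate replicates was thin. A PSME3 peak was found at 104 regions in replicate 1 (16.7%), 48 in replicate 2 (7.69%) and 219 in replicate 3 (35.1%), against 15.7%, 12.5% and 47.3% of all 5441 shared peaks. The 3 lists differ in length, with 1200, 776 and 3070 peaks, in the same order as the shares. No replicate list held a peak at 328 regions (52.6%, against 43.5% of all shared peaks and 53.7% of the intragenic ones), 229 were in 1 list, and 159 of these in that of replicate 3 alone. At least 2 lists held 67 regions (10.7%, against 15.0% of all and 9.58% of intragenic shared peaks), and all 3 lists held 8 (1.28%, against 3.97%). With 1 list left out, 247 regions (without replicate 1), 275 (without replicate 2) and 137 (without replicate 3) overlapped a peak of a remaining list.

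The 8 regions in all 3 lists, named after their values were seen, had as nearest genes Plk5, Dot1l, Fos, Gm4285, Gm34256, Msln, Nes and Gm23057. Dot1l encodes the histone H3 lysine 79 methyltransferase and Nes the intermediate filament protein nestin of progenitor cells. The region near the snRNA gene Gm23057 (chr9:72639705-72640651) had PSME3 fold enrichments of 4.19, 5.04 and 4.69 in replicates 1, 2 and 3, and that near the lncRNA Gm34256 (chr16:31598598-31599293) had 4.21, 4.39 and 5.13. The values of these 2 regions overlapped, but at day 2 they went separate ways, as described below. For the let-7a-1 region, PSME3 was not listed in replicate 1 and had fold enrichments of 4.04 and 5.77 in replicates 2 and 3. The remaining regions of highest enrichment were 11641 bp from Hbegf (chr18:36492777-36493286, 4.33 in the pooled list), the gene of a heparin-binding EGF-like factor, and 22604 bp from a snoRNA gene (chr3:103683647-103683984, 4.02).

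H3K4me3 was found again more often than PSME3. Cycling replicates 1, 2 and 3 held a peak at 427 (68.4%), 601 (96.3%) and 518 (83.0%) of the regions, against 89.5%, 98.5% and 94.5% of all shared peaks. All 3 lists held 406 regions (65.1%, against 88.4%), 122 were in 2 lists, 84 in 1 and 12 in none. Of the 84, 78 were found in replicate 2 alone, whose list was the longest (40999 peaks, against 18077 and 19365) and had the narrowest peaks.

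At day 2, an H3K4me3 peak overlapped 164 intergenic shared peaks in the fresh native preparation (26.3%), 331 in the crosslinked fresh cells (53.0%), 285 in the frozen native ones (45.7%) and 351 in those frozen and crosslinked (56.2%), a mean of 45.3% ± 13.4 (SD, n = 4). Over all shared peaks the shares were 74.1%, 84.1%, 81.7% and 85.7%. Gene-boundary peaks gave 94.3% to 97.5% and intragenic peaks 46.7% to 70.3%, so the intergenic share was the lowest of the 3 classes in each preparation. Each region had 4 chances: 157 (25.2%, against 73.8% of all shared peaks) had H3K4me3 in all 4 preparations, 99 in 3, 61 in 2, 84 in 1 and 223 (35.7%, against 11.9%) in none.

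**Figure D2:**
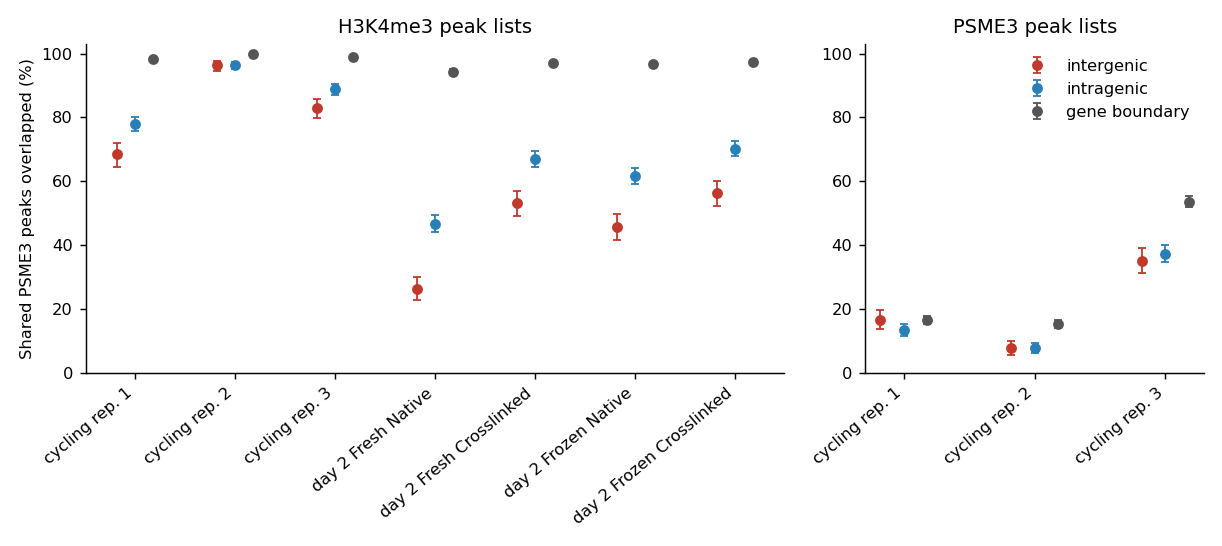
Percent of intergenic (624), intragenic (1419) and gene-boundary (3398) shared peaks overlapped by a peak of each H3K4me3 list (left) and each cycling PSME3 list (right), with exact 95% binomial intervals as bars. Intergenic peaks are lowest in every day 2 H3K4me3 list, from 26.3% to 56.2%, and gene-boundary peaks lie between 94.3% and 97.5%.

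The difference between intergenic and gene-boundary peaks was -68.0, -43.9, -51.0 and -41.2 percentage points in the 4 preparations, a mean of -51.1 ± 12 (SD, n = 4 libraries). Against intragenic peaks it was -20.4, -13.9, -15.9 and -14.0 points, a mean of -16.1 ± 3.02 (n = 4 libraries). Both were below 0 in 4 of 4 libraries, with a two-sided exact sign-flip permutation p of 0.13 each, the smallest that 4 libraries allow, and 0.156 after Benjamini-Hochberg adjustment over the 5 tests made. The design thus cannot reach 0.05. The libraries differ in preparation and the labels do not say whether the cells came from separate cultures, so the spread may be partly technical.

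The width of the host peak moved with this difference. Within 10 classes of host width, taken over all shared peaks, the intergenic share remained below the gene-boundary share, with differences of -25.9, -11.1, -17.1 and -13.1 points in the 4 preparations (mean difference -16.8), and below the intragenic share, with differences of -4.05, -0.483, -0.939 and -1.60 points (mean difference -1.77). Within 10 classes of host fold enrichment the mean differences were -6.12 and -1.78 points. With hosts of like width side by side, the difference from intragenic peaks thus lay between -4.05 and -0.483 points.

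Where a day 2 peak was present, it was narrower at intergenic regions. The median width of the widest day 2 peak over a region was 1069, 971, 953 and 1107 bp in the 4 preparations, and over gene-boundary peaks it was 2118, 2574, 2597 and 2729 bp. The log2 difference in width was -0.99, -1.41, -1.45 and -1.30, a mean of -1.29 ± 0.21 (SD, n = 4 libraries; two-sided exact sign-flip permutation p = 0.13, adjusted 0.156).

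Day 2 H3K4me3 was graded by the width of the cycling host. Divided at the quartiles of host width, intergenic regions on hosts of up to 759 bp had day 2 H3K4me3 in a mean of 10.9% over the 4 preparations, those up to 1242.5 bp in 32.7%, those up to 2204 bp in 57.4% and those on wider hosts in 80.3%. Gene-boundary peaks in the same width ranges gave 8.70%, 38.1%, 94.2% and 99.4%, and intragenic peaks 10.4%, 29.4%, 59.2% and 91.0%. On the narrowest hosts the ranges of the 3 classes over the preparations overlapped, and on hosts wider than 1242.5 bp gene-boundary peaks lay above the intergenic ones in every preparation.

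**Figure D3:**
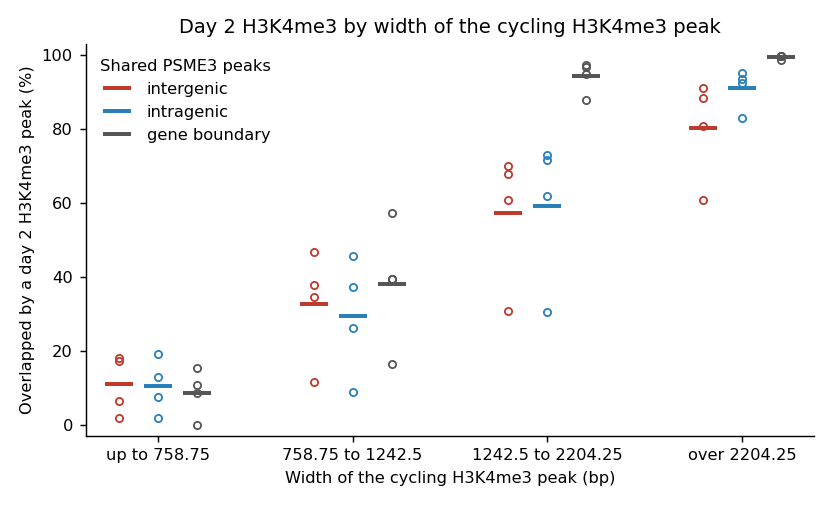
Percent of shared peaks with a day 2 H3K4me3 peak, by width range of the cycling H3K4me3 host in bp and by class. Open circles are the 4 day 2 preparations and bars their mean; the intergenic mean goes from 10.9% on the narrowest to 80.3% on the widest hosts.

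Seen the other way, regions with H3K4me3 in 0, 1, 2, 3 and 4 preparations had hosts with median widths of 743, 1034, 1248, 1617 and 2573 bp and median fold enrichments of 2.47, 2.80, 3.12, 4.05 and 7.68. The cycling PSME3 fold enrichment was level across the same groups, with medians of 2.97, 2.92, 2.97, 2.96 and 2.93. With distance the shares were nearly level out to 10 kb in all but the fresh native preparation and lower beyond, although the hosts narrowed throughout. At 1 to 2 kb from a gene, 35.6% to 60.3% of 73 regions had day 2 H3K4me3, depending on the preparation, and the hosts had a median width of 1877 bp. At 2 to 5 kb it was 27.9% to 62.6% of 147 regions with hosts of 1375 bp, higher than at 1 to 2 kb in 3 of 4 preparations. At 5 to 10 kb it was 30.6% to 60.5% of 147 with hosts of 1307 bp, and at 10 to 20 kb 22.9% to 50.4% of 131 with hosts of 1126 bp. At 20 to 50 kb it was 18.9% to 52.8% of 106 regions with hosts of 1018 bp, and beyond 50 kb 0% to 11.1% of 18 regions with hosts of 764 bp. Width and distance were not separated from each other.

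**Figure D4:**
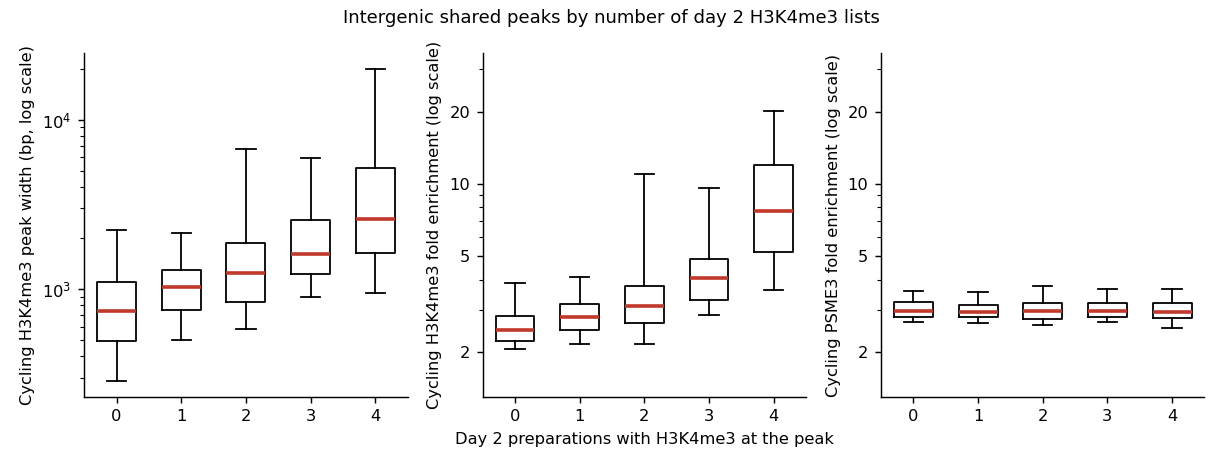
Cycling H3K4me3 width (left, bp) and fold enrichment (middle) and cycling PSME3 fold enrichment (right) of intergenic shared peaks, grouped by the number of day 2 preparations with H3K4me3 at the peak (223, 84, 61, 99 and 157 peaks). Boxes give quartiles with the median in red, whiskers the 5th and 95th percentiles, all on log axes; the median host width goes from 743 to 2573 bp while the PSME3 median stays between 2.92 and 2.97.

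The length of the day 2 lists ran in the same order as the shares, with 14372 and 15431 peaks for the native fresh and frozen cells and 20203 and 20245 for the crosslinked ones. With each list limited to its 14372 peaks of lowest q-value, an alternative chosen after the data were seen, the shares of intergenic regions were 26.3%, 38.3%, 40.1% and 43.4%. The cycling replicate lists limited in the same way held 49.2%, 54.2% and 52.9% of the regions. For gene-boundary peaks the same limits gave 94.3% to 96.3% at day 2 and 96.5% to 97.4% in cycling cells. The regions were chosen on the cycling lists, so the higher cycling shares are a description.

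The 68 regions whose host came within 1 kb of a gene had day 2 H3K4me3 in 63.2%, 85.3%, 76.5% and 88.2% over the 4 preparations, against 21.8%, 49.1%, 41.9% and 52.3% of the 556 others. The difference was 41.5, 36.2, 34.6 and 35.9 points, a mean of 37.0 ± 3.04 (SD, n = 4 libraries; above 0 in 4 of 4; two-sided exact sign-flip permutation p = 0.13, adjusted 0.156). Its direction turned when hosts of like width were compared. Within 10 width classes, an alternative added after the data were seen, regions on hosts that reached a gene had the lower share, with a mean difference of -11.0 ± 4.87 points (SD, n = 4 libraries; below 0 in 4 of 4; exact sign-flip permutation p = 0.13). Within 10 classes of host fold enrichment the mean difference was -7.03 ± 5.93 points (n = 4 libraries). The regions also differed in their place on the host. A median of 1731 bp separated the centres of PSME3 peak and host for the 68, against 155.5 bp for the 556 others. These classes did not match that distance, and its part in the difference was not tested.

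Intergenic H3K4me3 peaks were also compared by whether they held PSME3 at all. Of the pooled H3K4me3 peaks that lay over 1 kb from genes, 551 overlapped a PSME3 peak and 3354 did not. Those with PSME3 were found in the 4 day 2 preparations at 23.8%, 51.9%, 44.1% and 55.7%, and those without at 11.1%, 29.7%, 24.6% and 32.5%. The unadjusted difference was a mean of 19.4 ± 4.76 points (SD, n = 4 libraries). Peaks with PSME3 were wider in cycling cells, at a median of 1126 against 626 bp. Within 10 width classes the difference was -0.62, 2.56, 0.68 and 2.70 points, a mean of 1.33 ± 1.59 (n = 4 libraries; two-sided exact sign-flip permutation p = 0.25, adjusted 0.25), above 0 in 3 of 4 libraries. Within 10 classes of H3K4me3 fold enrichment it was at most 6.33 points, a mean of 3.64 ± 2.49 (n = 4 libraries; two-sided exact sign-flip permutation p = 0.13, the smallest that 4 libraries allow), above 0 in 4 of 4 libraries. Both means were smaller than the unadjusted one, and 4 libraries cannot give a p under 0.05.

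PSME3 itself was rarely called at day 2, when the lists held 23, 18, 186 and 77 PSME3 peaks in the 4 preparations. A day 2 PSME3 peak lay at 7 of 624 intergenic regions (1.12%, against 3.27% of all shared peaks, 4.65% of gene-boundary and 0.916% of intragenic ones), at 0, 1, 6 and 2 regions in the same order. Of the 7, 1 was on an unplaced sequence, and the other 6 all had PSME3 in the frozen native preparation. The region 15143 bp upstream of Des, the gene of the muscle intermediate filament desmin (chr1:75344504-75345149), was the one placed region with PSME3 in 2 preparations, frozen native and frozen crosslinked. Its cycling PSME3 fold enrichment was 3.56 in replicate 3 and not listed in the others, and H3K4me3 was found in all 3 cycling lists (4.83, 4.18 and 4.56) and all 4 day 2 preparations (3.22, 4.03, 4.79 and 6.20). The others lay near Mirlet7a-1, Gm23057, Socs3 and Midn and, named after its value was seen, Mir23a. All 6 had H3K4me3 in at least 3 day 2 preparations. Of all 624 regions, 99 had the mark in 3 preparations and 157 in 4. With unknown depth and 1 library per preparation, PSME3 below the threshold of the caller was not detectable.

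The let-7a-1 region can be followed through every H3K4me3 list. H3K4me3 had a fold enrichment of 11.3, 8.33 and 18.3 in cycling replicates 1, 2 and 3 and of 5.64, 5.84, 9.78 and 6.19 in the 4 day 2 lists, with peaks of 2786, 5181, 4706 and 6610 bp, against a host of 7134 bp in the pooled cycling list. The mark was found in every library, and the near edge of the host lay 1832 bp from the hairpin in cycling cells. A second region of the locus, 14102 bp from the hairpin, stood on a separate H3K4me3 peak of 662 bp and had day 2 H3K4me3 in 2 preparations.

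The Mir23a, Mir27a and Mir24-2 locus, described after its values were seen, held 3 regions on 1 host of 12050 bp, at 9691, 6825 and 4516 bp upstream of the Mir23a hairpin, and another on a host of 1534 bp nearer to Mir181c. PSME3 was in 2, 1, 1 and 1 replicate lists at these regions. All 4 had H3K4me3 in every day 2 preparation. So did 25.2% of all 624 regions and 63.2% of the 68 on hosts within 1 kb of a gene. The H3K4me3 fold enrichment over the region 9691 bp upstream was 7.60, 14.7, 22.4 and 12.7 in the 4 preparations. Fold enrichment cannot be compared between lists of unknown depth, and the values show presence in each.

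**Figure D5:**
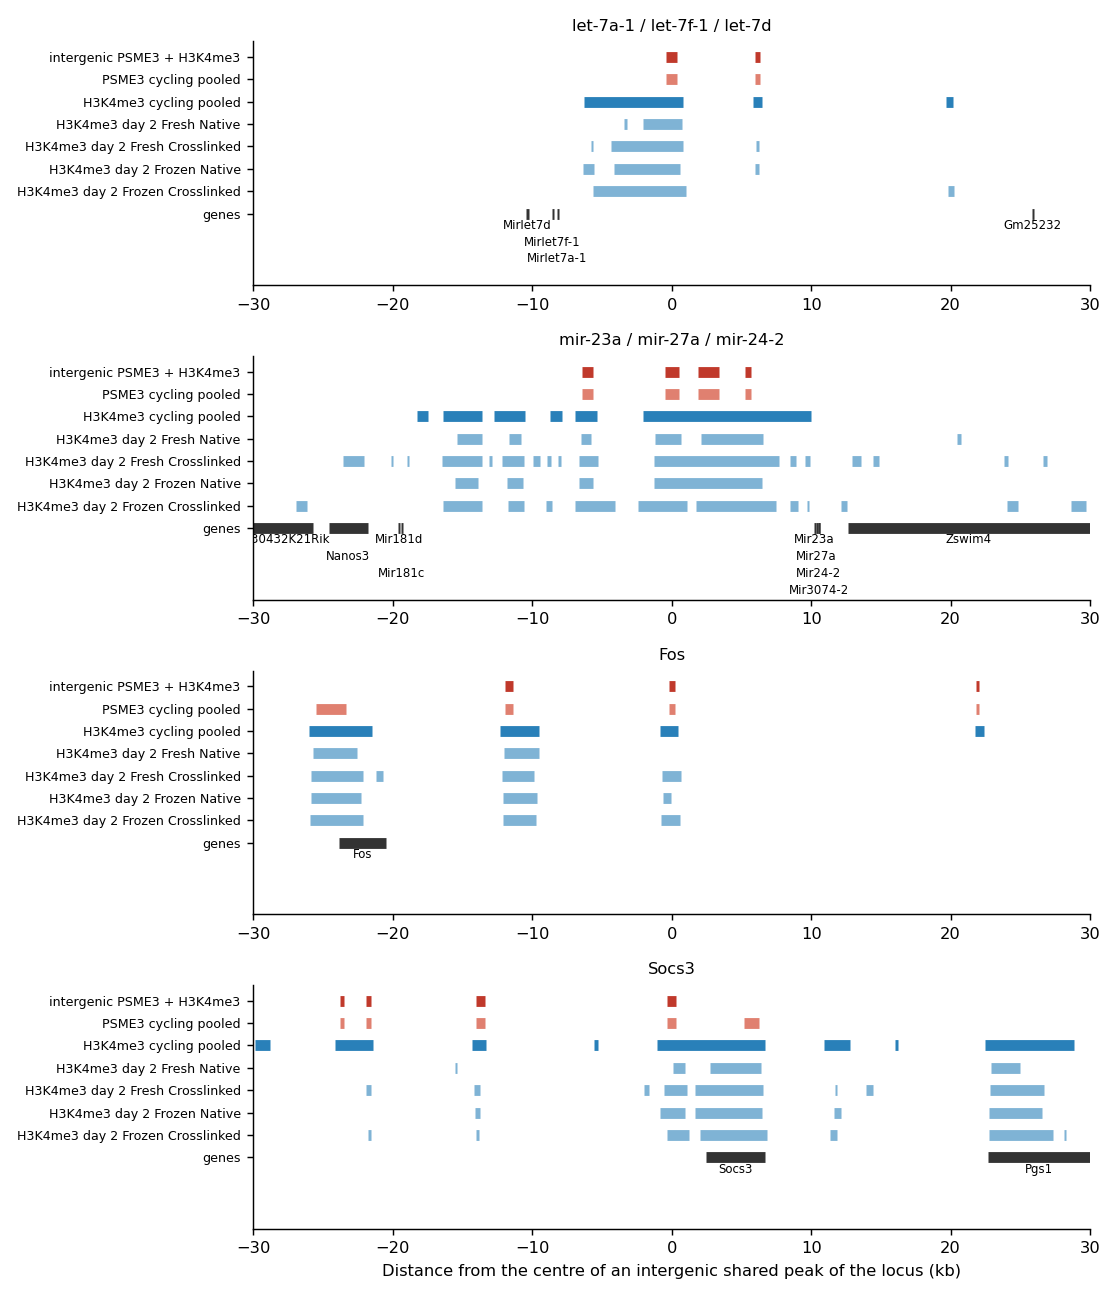
Peaks around 4 loci, with distance in kb from the centre of the intergenic shared peak of highest PSME3 fold enrichment among those nearest to Mirlet7a-1, Mir23a, Fos or Socs3, genes of the table in black, PSME3 in red and H3K4me3 in blue. H3K4me3 lies upstream of the hairpins at the microRNA loci in all 4 day 2 preparations, in broken stretches in some of them. At Socs3 the 3 outlying intergenic shared peaks have H3K4me3 in 3, 2 and 0 preparations.

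The Socs3 locus, also chosen after its values were seen, held the other group of 4, which spanned 24085 bp from first to last and lay downstream of the gene. The nearest, at 2129 bp, shared a 7729 bp host with the Socs3 promoter shown above and had H3K4me3 in 4 day 2 preparations. Those at 15876, 24020 and 25936 bp were on hosts of 1015 and 2722 bp and had H3K4me3 in 3, 2 and 0 preparations. Of all 624 regions, 153 (24.5%) had another within 50 kb, in 70 groups, of which 11 held at least 3 regions. Near Mylk2, which encodes skeletal muscle myosin light chain kinase, 2 of 3 regions shared a 10052 bp host with a fold enrichment of 17.8, yet the one 2505 bp from the gene had H3K4me3 in 0 day 2 preparations and the one 4171 bp away in 3. A single broad host could thus be found again in part only.

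Regions with H3K4me3 in none of the 4 day 2 lists stood mostly, but not always, on weak hosts. The 5 with the highest PSME3 fold enrichment lay near Gm34256 (4.12), a snoRNA gene (4.02), Gm42334 (3.92), Pkp1 (3.84), which encodes the desmosomal protein plakophilin, and Gm40741 (3.82), on hosts of 290 to 1892 bp with fold enrichments of 2.25 to 3.66. Gm34256 and Gm23057 make a close pair: host widths of 1852 and 1864 bp, PSME3 in 3 of 3 and H3K4me3 in 3 of 3 cycling lists at both. At Gm34256, H3K4me3 had cycling fold enrichments of 3.19, 2.67 and 4.03 and was in 0 of 4 day 2 lists, and at Gm23057 it had 5.16, 3.98 and 5.63 and was in 3 of 4. The widest host with no day 2 peak over its region, named after its value was seen, spanned 12159 bp near Bhlhe41, which encodes a circadian bHLH repressor.

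Gene lists were used to ask which known genes lay nearest to an intergenic shared peak. Of 25 myogenic regulators, 4 had such a peak nearby, namely Id2, Hes1, Id1 and Mef2d, with 1 region each (0.643% of the intergenic regions, against 13 of 4817 other shared peaks, 0.270%). Of these 4 regions, 3 had H3K4me3 in all 4 day 2 preparations, each on a host that reached the gene, against 63.2% of all 68 regions on such hosts and 25.2% of all 624. The exception was Id1, an inhibitor of bHLH factors like Id2. Its region lay 9006 bp away (chr2:152726900-152727245) on a host of 3605 bp with a fold enrichment of 3.68, was found in 3 of 3 cycling lists (4.24, 3.56 and 4.62), and was in 0 of 4 day 2 lists.

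Of 25 serum response gene symbols, 23 were in the table, and 7 of these had 8 regions: Ier5, Fos with 2, Egr3, Dusp1, Ier3, Fosl1 and Fosb. These are genes induced within minutes to hours of growth factor addition, and Fos, Fosb and Fosl1 encode subunits of the AP-1 factor. Day 2 H3K4me3 was in all 4 preparations at 3 of the 8, those near Egr3, Ier3 and the region 8517 bp downstream of Fos (chr12:85485791-85486343), against 157 of all 624 (25.2%). These 8 regions were 1.29% of the intergenic ones, and 17 of the 4817 other shared peaks (0.353%) had a serum response gene nearest. That Fos region had the mark at 7.95, 9.72, 18.3 and 13.1 in the 4 preparations on a free-standing host of 2751 bp. The second Fos region, 20228 bp downstream (chr12:85497502-85497956), had PSME3 in all 3 replicates (4.89, 4.57 and 3.56) and day 2 H3K4me3 in 3 preparations. Near Ier5 it was 3 preparations, near Fosl1 2, near Dusp1 1 and near Fosb 0. Fosl1 combined a host of 18250 bp, which reached the gene, with cycling H3K4me3 of 5.19, 9.04 and 24.2 and day 2 values of 2.93 and 3.15 in the crosslinked preparations only.

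The cell cycle list of 14 genes had 1 region, 1628 bp from Ccnd1 with H3K4me3 in all 4 preparations. It was 0.161% of the intergenic regions, against 2 of the 4817 other shared peaks (0.0415%). The list of 29 adhesion and cytoskeleton genes had 2 regions, both near Actb, the gene of cytoplasmic β-actin. They lay 12578 bp (3 preparations) and 21252 bp (4 preparations) from it. The 2 were 0.322% of the intergenic regions, against 17 of the 4817 other shared peaks (0.353%). No intergenic region had any of the 10 genes of PSME3 and its partners nearest, against 3 of the 4817 other shared peaks (0.0623%). In all, 15 of 622 intergenic regions (2.41%) and 52 of 4817 other shared peaks (1.08%) had a listed gene as nearest neighbour. The nearest gene is a matter of position alone, and no list was tested for enrichment. Where a shared peak lay over several genes, only 1 was taken as nearest. That could lower the counts of the other shared peaks alone, since intergenic regions overlap no gene.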

How the data were processed

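CUT&RUN peak lists of 14 of the 21 libraries and the pooled cycling lists were used. According to the submitters' processing notes and the methods of the study, the authors trimmed reads with Trim Galore, aligned them to mm10 with Bowtie2 and called peaks with MACS2, per library and, for cycling cells, on the 3 replicates in aggregate. Versions, options and the control used for peak calling are not given in the sources used here. The deposited lists give for each peak a fold enrichment, a ratio to the background estimated by the caller, and the -log10 of the p-value and q-value. Every deposited peak had a q-value under 0.1. Depth is unknown because reads are not counted in these lists, and the peaks called depend on it.

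Overlaps of at least 1 bp and tests used scipy 1.17.1, pandas 2.3.3 and numpy 2.4.6 under Python 3.11.15, and figures matplotlib 3.10.9. The overlap and gene class functions were tested on simulated data of 597 peaks, of which 100% were recovered in the right class. Genes were the 49997 entries of the GRCm38.p6 gene table. That table gives no strand, which was taken from the promoter and microRNA tables where they hold the gene. No genome was used, so sequence features of the peaks themselves, part of the design, were not computed, and promoter windows were described in their place. The pooled H3K4me3 peak with the largest overlap was the host of a region.

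The regions and gene lists were chosen with earlier results of these data known, and nothing on the cycling lists that chose the regions was tested. Day 2 comparisons used a two-sided exact sign-flip permutation test of the per-library difference over the 4 H3K4me3 libraries, with Benjamini-Hochberg adjustment over 5 tests. Intervals are exact 95% Clopper-Pearson intervals and cover counting error only.

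Named regions were the 5 of highest PSME3 fold enrichment in at least 2 replicate lists and the 5 farthest from a gene. Those on the 3 widest hosts of intergenic regions and up to 5 with day 2 PSME3 in the most libraries were also named. So were the 5 of highest fold enrichment with no day 2 H3K4me3 and the 3 on either side of the 1 kb limit. The last were those nearest to a gene of the lists on myogenic regulators, serum response, adhesion and cytoskeleton, PSME3 and partners, and cell cycle. Regions on unplaced sequences were counted and not named. A gene of these lists is not reported here and was left out of their counts. Alternatives were an overlap of 50%, q-value limits of 0.05 and 0.01, a gene distance of 3 or 5 kb, protein-coding genes alone, peak centres, support in at least 1 or 2 PSME3 replicates, no unplaced sequences, each library left out, and classes of H3K4me3 width or fold enrichment.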

Additional observations from a re-analysis of the deposited data

How the results depend on the processing

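Numbers of regions depended most on the stringency of the PSME3 list. Against 624 regions, there were 320 under a q-value limit of 0.01, 404 at a gene distance of 5 kb, 928 with protein-coding genes alone, and 296 found in at least 1 and 67 in at least 2 PSME3 replicate lists. The pooled lists were not called again with a replicate left out, so a region then had to be in a remaining list of that antibody. Against the 296 regions in at least 1 PSME3 list, 137 to 275 were left for PSME3, and against the 612 in at least 1 H3K4me3 list, 534 to 612 for H3K4me3. The ranges over left-out replicates below hold both changes. The median gene distance of 7824 bp became 10856 bp and 12887 bp at limits of 3 and 5 kb, 18296 bp with protein-coding genes alone and 7017 bp for support in 2 PSME3 lists, with 7317 to 9431 bp over left-out replicates. The median host width of 1242.5 bp became 1478 bp and 1516 bp for support in 1 and 2 PSME3 lists, and 1252 to 1516 bp over left-out replicates. Support in at least 1 PSME3 list, 47.4%, was 65.6% under the q-value limit of 0.01 and 47.7% to 50% over left-out H3K4me3 replicates. Regions with day 2 PSME3 numbered 7, against 4 for support in 2 lists and 4 to 7 over left-out replicates.

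The share of regions whose host reached a gene, 10.9%, was 6.75% and 5.69% at 3 and 5 kb, 8.41% with protein-coding genes alone, 14.2% and 19.4% for support in 1 and 2 lists, and 10.9% to 16.6% over left-out replicates. Regions nearest to a listed gene numbered 15, against 8 at 3 kb and 8 at 5 kb, 39 with protein-coding genes alone, 9 and 1 for support in 1 and 2 lists, and 3 to 15 over left-out replicates. The alternatives for these 2 quantities were chosen after the data were seen.

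The day 2 difference from gene-boundary peaks stayed below 0 under every alternative run, from -58.7 to -6.12 points, and that from intragenic peaks from -18.8 to -1.77 points, the smallest sizes being within classes of fold enrichment and of width. Over left-out libraries they were -54.3 to -41.3 and -17.0 to -14.6 points, and the log2 width difference was -1.47 to -1.08. The difference by PSME3 within width classes was 0.87 to 1.98 points over left-out libraries, against 19.4 points without width classes. The difference between hosts that did and did not reach a gene was 32.7 to 49.1 points over left-out libraries 29.4 and 22.1 points at gene distances of 3 and 5 kb, and -11.0 points within width classes, where its direction reversed, and the cause was not tested.

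The tests took differences between classes of peaks within each day 2 library. By replicate number, no paired analysis was possible because the numbers are shared by cycling libraries only, whose values come from no test. The smallest p that 4 libraries allow is 0.13, and with unknown depth a peak missing from a list does not show that the mark was lost.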
